A study of Caenorhabditis elegans with 79 samples.

Results

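The genes described here encode contractile proteins of Caenorhabditis elegans muscle: the myosin heavy chains unc-54, myo-1, myo-2 and myo-3, the paramyosin unc-15, the tropomyosin lev-11, the troponin genes tni-3, unc-27 and mup-2, and the actin act-4. They were taken by gene name from the mRNA table, which gave 10 of 21976 genes, and all 10 names matched the supplied gene table. The genes lie on chromosomes I (unc-54, myo-1, unc-15 and lev-11), V (myo-3 and tni-3) and X (myo-2, mup-2, unc-27 and act-4). Each was followed across strains and generations as a readout of somatic tissue in RNA from whole worms.

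The study asked how morc-1, which encodes a GHKL-type ATPase, acts on the targets of nuclear RNAi over generations, with wild type and hrde-1 as controls. The 12 mRNA libraries held 2 each from wild type N2 (WT), the mutant morc-1(tm6048) and the mutant hrde-1(tm1200), whose gene encodes a nuclear Argonaute, in generation F1 (early) and in generation F4 (late). All worms were fed OP50 bacteria and had been at 25 °C since the generation labelled P0, after growth at 20 °C. The labels give whole young adults as the source and gravid hermaphrodites as the animals extracted, so the RNA holds soma, germline and embryos together. Nothing in them ties the replicates to different cultures, so the tests measure the spread between libraries, which may be technical. In such bulk RNA, fewer cells of a type and less RNA per cell cannot be told apart.

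Body-wall muscle of the worm is built of sarcomeres in which thick filaments slide past thin filaments. In a thick filament the myosin of myo-3 takes the centre and that of unc-54 the arms, around a core of paramyosin from unc-15. Thin filaments hold actin, tropomyosin and the troponin complex, in which troponin T binds tropomyosin and troponin I holds contraction back until calcium is bound by troponin C. The pharynx, a separate feeding pump, uses its own myosins from myo-1 and myo-2.

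The mRNA values were read as FPKM, a level scaled to gene length and library size, with unknown read depth. Of the mutated genes, morc-1 followed the labels, at 9.77 to 14.1 FPKM in the 4 morc-1 libraries and at 22.4 to 54.9 FPKM elsewhere. hrde-1 (listed as wago-9) was at 151 and 134 FPKM in early hrde-1 worms against 234 and 198 in early WT. Early morc-1 worms, at 125 and 161 FPKM, overlapped early hrde-1 worms, so hrde-1 mRNA did not set that mutant apart. Late, hrde-1 was at 81.1 and 68.5 FPKM in its mutant against 102 and 97.2 in WT. Markers of the other tissues were present, with 17 of 18 intestine genes, 22 of 22 oogenesis genes and 6 of 14 hypodermis genes at a mean of at least 10 FPKM. On average the hypodermis list, led by the cuticle collagens col-19 and col-119, was higher in replicate 2 than in replicate 1 in all 6 groups, by 1.39 to 2.09 on the log2 scale. Not every gene of the list did so. In late WT elt-3 fell from 12.9 to 9.11 FPKM between replicates 1 and 2, and lin-26 from 39.3 to 31.2 FPKM. In late hrde-1 they fell from 13.8 to 12.8 and from 42.9 to 31.2 FPKM. In late morc-1 elt-3 fell and lin-26 rose, and in the early groups both rose. The late hrde-1 library of replicate 2 stood apart, with the highest FPKM sum and 4968 summed FPKM of 35 sperm genes, against 1302 in its partner. WT late replicate 1 held the lowest sum of sperm genes (76.8 FPKM).

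unc-54, the major body-wall myosin, was at 97.1 and 70.7 FPKM in early WT and at 320 and 193 FPKM in late WT. In morc-1 it was at 122 and 98.1 FPKM early and at 216 and 204 FPKM late, and in hrde-1 at 118.5 and 73.0 FPKM early and at 84.0 and 191 FPKM late. Late libraries were thus above early ones in WT and in morc-1, as for 12.2% and 17.3% of all genes with a mean of at least 10 FPKM. In hrde-1 the late pair spanned the early pair. myo-3, the second body-wall myosin, lay between 6.77 and 14.2 FPKM in all 12 libraries. Its late and early libraries overlapped in every strain.

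The pharyngeal myosins were the lowest of the 10 genes. myo-1 ran from 0.237 to 1.32 FPKM and myo-2 from 0.192 to 1.55 FPKM, so neither reached the mean of 10 FPKM required for testing and 8 of the 10 genes were tested. The highest value of both was in late hrde-1 worms, with 1.03 and 1.32 FPKM for myo-1 and 1.09 and 1.55 FPKM for myo-2. In late WT worms myo-1 stood at 0.340 and 0.547 FPKM and myo-2 at 0.192 and 0.685 FPKM. The late hrde-1 libraries were above every other library for both genes, at levels too low to compare at an unknown depth.

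unc-15, the paramyosin of the thick filament core, was at 88.8 and 96.4 FPKM in early WT and at 274 and 128 FPKM in late WT. The morc-1 libraries held 110 and 116 FPKM early and 198 and 183 FPKM late, and the hrde-1 libraries 112.5 and 102 FPKM early and 115 and 128 FPKM late. Late values exceeded early values without overlap in each strain, but the 2 late WT libraries differed by 2.13-fold. lev-11, the tropomyosin gene, stood at 382 and 445 FPKM in early WT and at 735 and 429 FPKM in late WT. It was at 482 and 437 FPKM early and at 414 and 373 FPKM late in morc-1, and at 408 and 386 FPKM early and at 335 and 343 FPKM late in hrde-1. One late WT library was high and the other lay among the early ones, while both mutants were slightly lower late than early.

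tni-3, a troponin I gene, had the clearest separation by generation. It was at 10.7 and 13.1 FPKM in early WT and at 50.4 and 36.6 FPKM in late WT. Its morc-1 values were 13.5 and 13.1 FPKM early and 24.6 and 23.3 FPKM late, and its hrde-1 values 10.8 and 11.3 FPKM early and 25.0 and 28.7 FPKM late. All 6 late libraries were above all 6 early ones, and the late WT pair was above the late mutants.

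unc-27, the other troponin I gene of the set, was at 334 and 427 FPKM in early WT and at 756 and 895 FPKM in late WT. In morc-1 it was at 457 and 403 FPKM early and at 396 and 527 FPKM late, and in hrde-1 at 379 and 332 FPKM early and at 399 and 1070 FPKM late. The high late hrde-1 value was replicate 2, and the gap of 2.68-fold to its partner was the widest of this gene. mup-2, a troponin T gene, was at 115 and 184 FPKM in early WT and at 173 and 111 FPKM in late WT. Its mutant values ran from 110 to 179 FPKM in morc-1 and from 86.5 to 144 FPKM in hrde-1, and no group stood out.

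act-4, one of the muscle actins, ran from 470 to 800 FPKM. The actin genes act-1 to act-4 are near-identical copies, so reads may be shared between them, and how they were assigned is not given in the sources used here. Its value is uncertain for that reason.

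**Figure D1:**
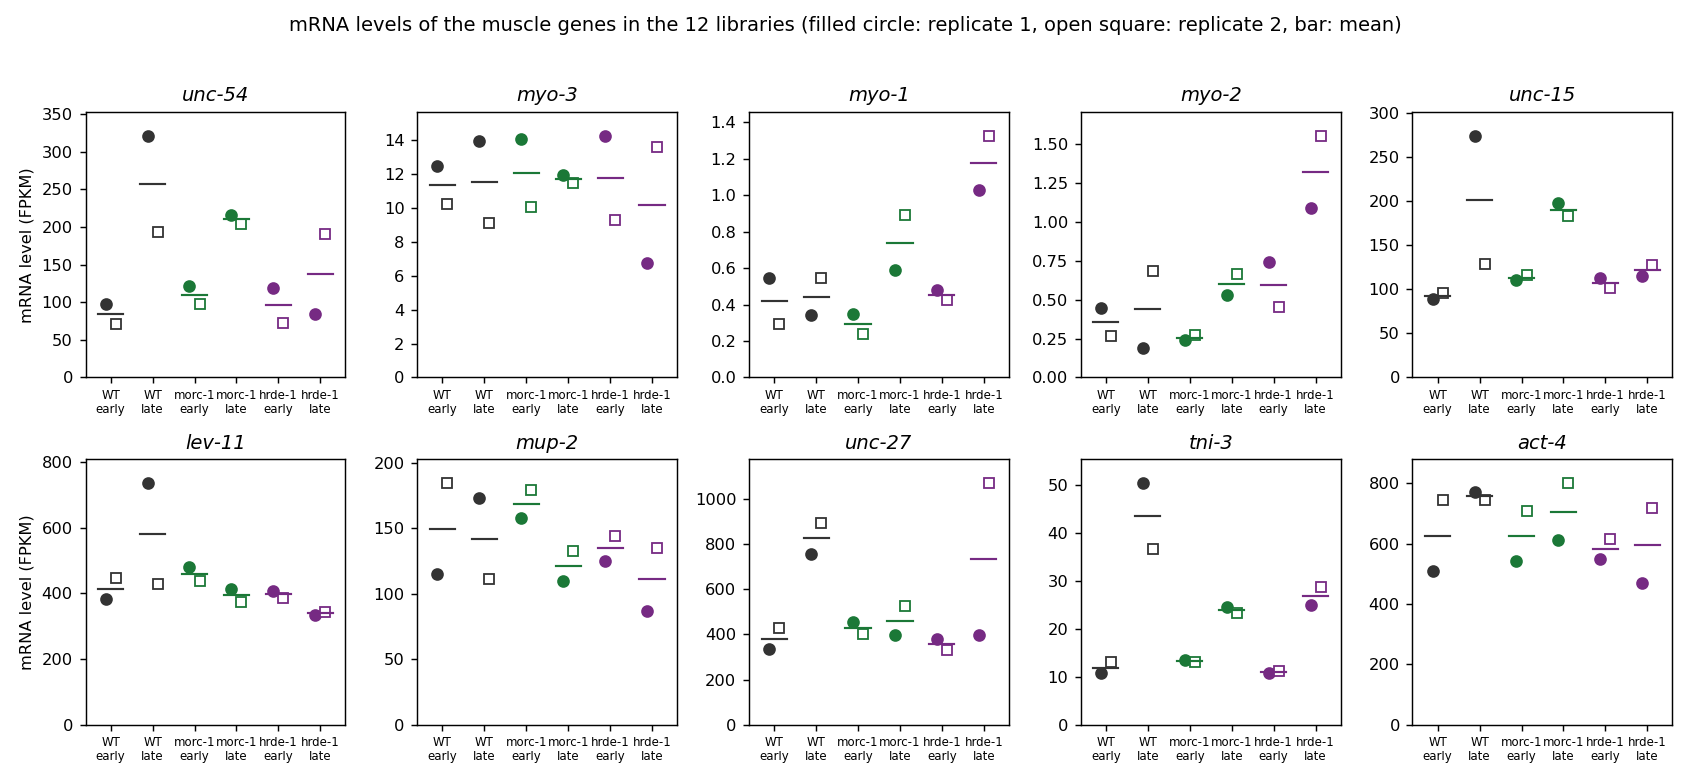
mRNA level in FPKM (linear axis from 0, scale differs by gene) of the 10 muscle genes in the 6 groups. Filled circles are replicate 1, open squares replicate 2 and bars the mean of both; tni-3 shows 6 late libraries above all early ones, and myo-3 stays between 6.77 and 14.2 FPKM.

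Ordered by mean FPKM in early WT, act-4 (626 ± 167, SD, n = 2) came before lev-11 (414 ± 44.9) and unc-27 (381 ± 65.8), whose libraries overlapped. They were followed by mup-2 (149 ± 49.1) and then by unc-15 (92.6 ± 5.42) and unc-54 (83.9 ± 18.6), which also overlapped. tni-3 (11.9 ± 1.71) and myo-3 (11.4 ± 1.61) were next and overlapped, before myo-1 and myo-2. Early morc-1 and early hrde-1 worms gave the same order down to unc-54. Late WT worms had another order, led by unc-27 (826 ± 98.3) with act-4 (758 ± 17.4) overlapping it. unc-54 (257 ± 89.8) and unc-15 (201 ± 103) then stood above mup-2 (141.9 ± 43.9), although the libraries of unc-15 overlapped with both. In late morc-1 worms unc-54 (210 ± 8.99), unc-15 (191 ± 10.6) and mup-2 (121 ± 16.2) followed each other without overlap. Late, the libraries of tni-3 were above those of myo-3 in each strain.

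Generation was compared first. In WT, 2 of the 8 tested genes rose from early to late, against 3.13% of all genes tested, and 0 fell. tni-3 rose by 1.78 ± 0.27 (log2 of FPKM + 1, SE; limma adjusted p = 0.00972) and unc-54 by 1.57 ± 0.41 (limma adjusted p = 0.0490). Not passing were unc-27 with 1.12 ± 0.40 (limma adjusted p = 0.0730) and unc-15 with 1.01 ± 0.31 (limma adjusted p = 0.0610). unc-15 was at 0.47 without replicate 1 of late WT and at 1.56 without replicate 2, where it passed (limma adjusted p = 0.0133), and it passed in 6 of 20 alternatives. Late libraries lay above early ones without overlap for 5 of 8 genes, against 12.2% of all genes in that direction. The fifth was act-4, with a difference of 0.30 that became -0.06 under quantile normalization. tni-3 did not pass without replicate 1 or 2 of early WT (limma adjusted p = 0.0988 and 0.0645), and passed in 17 of 20 alternatives. unc-54, close to the threshold, passed in 5 of 20 (limma adjusted p up to 0.255, without replicate 2 of early WT).

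The remaining thin filament genes and myo-3 gave no call in WT. lev-11 differed by 0.44 ± 0.27, with a 95% interval of -0.15 to 1.04, and by 0.06 without replicate 1 of late WT. For mup-2 the difference was -0.07 (interval -0.79 to 0.65), which turned to 0.51 when libraries were scaled to a common median. myo-3 was at 0.00 (interval -0.92 to 0.92), so changes of either sign of nearly that size were within its error. The genes shared a background that moved: over all 7324 tested genes the median WT difference was -0.59, and that of the 8 muscle genes was 0.73. All 8 stood above the median of all genes.

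In morc-1, 0 of 8 genes passed from early to late, against 0.382% of all genes, and 3 had an unadjusted p under 0.05 in limma. Those were unc-54 with 0.94 ± 0.41, tni-3 with 0.80 ± 0.27 and unc-15 with 0.75 ± 0.31, with limma adjusted p of 0.390, 0.328 and 0.382. The share of all genes with an unadjusted p under 0.05 in limma was not counted, here or in the comparisons below. unc-27 differed by 0.09 ± 0.40 and mup-2 by -0.48 ± 0.32. The muscle genes had a median of 0.13, beside -0.22 for all genes.

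In hrde-1, 0 of 8 genes passed from early to late, against 0.942% of all genes, and 1 had an unadjusted p under 0.05 in limma. It was tni-3, with 1.21 ± 0.27 (limma adjusted p = 0.0879). Both of its late libraries were above both early ones, against 13.9% of all genes in that direction. unc-27 was next with 0.88 ± 0.40 (limma adjusted p = 0.188). unc-54 differed by 0.44 ± 0.41 and unc-15 by 0.18 ± 0.31. The muscle genes had a median of 0.09, beside -0.45 for all genes. Without replicate 1 of late hrde-1 both troponin I genes passed, tni-3 with 1.31 (limma adjusted p = 0.0268) and unc-27 with 1.59 (limma adjusted p = 0.0212). Without replicate 2, the library that stood apart, unc-27 was at 0.17, unc-54 turned to -0.15 and tni-3 stayed at 1.11.

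A comparison of the 6 late with the 6 early libraries over the 3 strains was added after the data had been seen. It takes the libraries as independent, but same-numbered ones deviated together across strains within a generation (r = 0.43 to 0.55 across genes). The SE and p of every gene in this comparison may therefore be too small. In this comparison 4 of 8 genes rose, against 7.45% of all genes that rose and 38.5% that fell, and 0 of the 8 fell. tni-3 rose by 1.26 ± 0.16 (limma adjusted p = 0.00142), unc-54 by 0.98 ± 0.24 (0.0145), unc-27 by 0.70 ± 0.23 (0.0335) and unc-15 by 0.65 ± 0.18 (0.0203). Of these, tni-3 alone had no overlap between generations, which 3.32% of all genes showed in that direction. act-4 (0.16), lev-11 (-0.00), myo-3 (-0.09) and mup-2 (-0.28) did not pass, and the sign of each changed under quantile normalization or median scaling. The median over the muscle genes was 0.40 and that over all genes -0.41. With the replicate number as a block within each generation, unc-54 (0.68) and unc-27 (0.35) did not pass. That fit sets late against early at the level of replicate 1. When 1 library at a time was left out, unc-15 did not pass in 4 of 12 fits (without replicate 2 of early WT, early morc-1, late morc-1 or early hrde-1, limma adjusted p up to 0.0594). unc-27 did not pass in 8 of 12 (without any early library, or without replicate 2 of late WT or of late morc-1, limma adjusted p up to 0.0907).

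**Figure D2:**
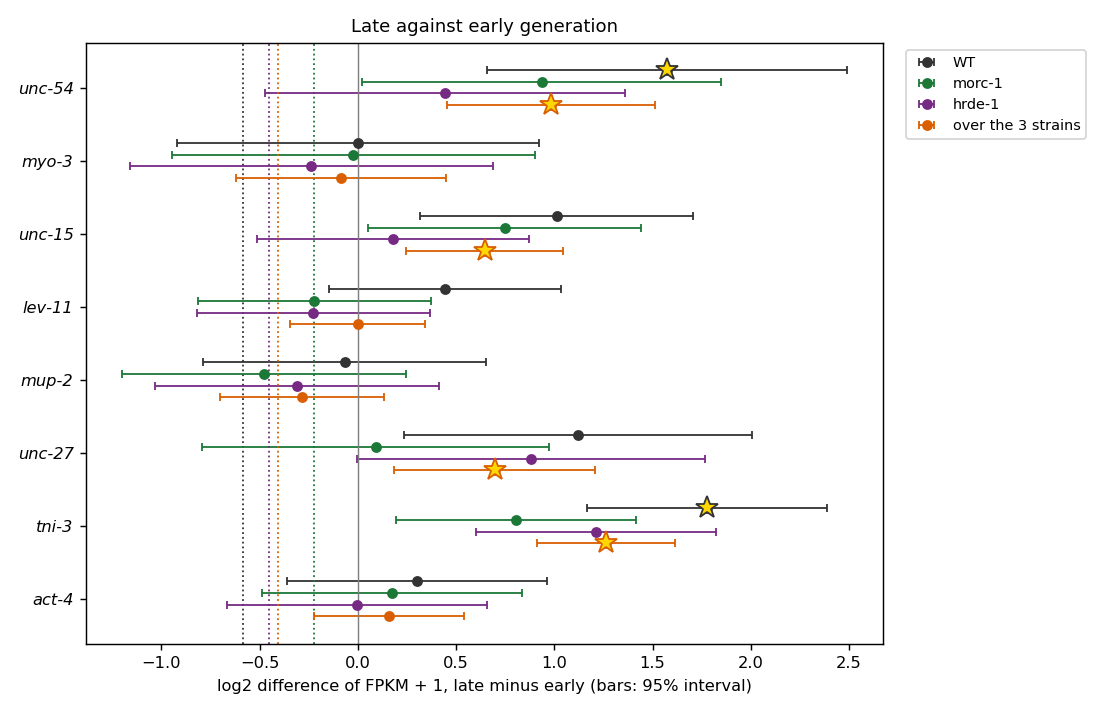
Difference of late minus early worms on the scale log2(FPKM + 1) for the 8 tested muscle genes in each strain and over the 3 strains, with 95% intervals. Stars mark limma adjusted p under 0.05 and dotted lines the median of all 7324 genes; tni-3 lies right of 0 in each strain (1.78, 0.80 and 1.21), and myo-3 and mup-2 lie near or left of 0.

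Within the thick filament the genes did not move together. The FPKM of unc-54 was 6.92 to 9.72 times that of myo-3 in the 6 early libraries and 12.4 to 22.9 times in the 6 late ones. Late WT gave 22.9 and 21.2, late morc-1 18.1 and 17.7, and late hrde-1 12.4 and 14.1, so the generations did not overlap and late strains were ordered with WT first. This pair was chosen after its values had been seen and was not tested. The ratio of unc-15 to unc-54 showed no such split, with 0.904 to 1.397 early and 0.665 to 1.37 late. The ratio of tni-3 to unc-27 was 0.0284 to 0.0339 early and 0.0268 to 0.0666 late, and 5 of the 6 late libraries were above the early ones, while late hrde-1 replicate 2 was below them.

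**Figure D3:**
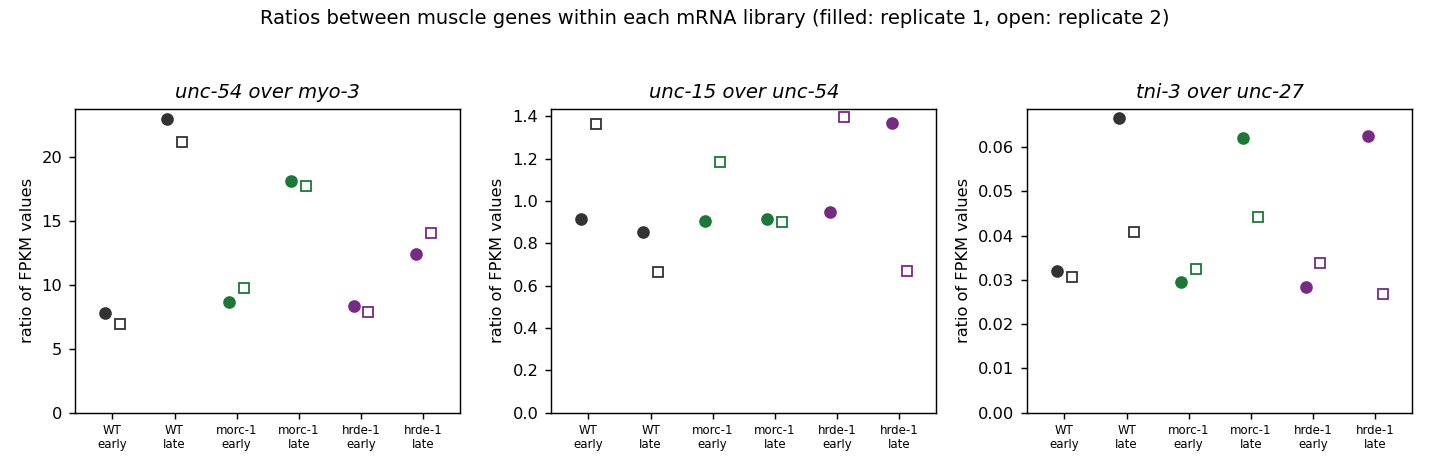
Ratio of FPKM values (linear axis from 0) between pairs of muscle genes within each of the 12 libraries, by group. Filled circles are replicate 1 and open squares replicate 2; the ratio of unc-54 to myo-3 is at most 9.72 in early libraries and at least 12.4 in late ones.

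The mutants were then set against WT of the same generation, which shares its libraries between both mutant comparisons. Early, 0 of 8 genes passed in morc-1, against 0.109% of all genes, and 0 in hrde-1, against 0.601%, and 0 had an unadjusted p under 0.05 in limma in either. The largest early difference was that of unc-54 in morc-1, 0.40 with an interval of -0.52 to 1.31. In early morc-1 2 genes (unc-54 and unc-15) were higher than WT without overlap, against 10.3% of all genes in that direction. In early hrde-1 it was 1 gene (unc-15), against 10.5%, and 0 were lower without overlap in either mutant. The muscle genes had a median of 0.17 in morc-1 and -0.07 in hrde-1, beside -0.06 and -0.02 for all genes.

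Late, 0 of 8 genes passed in morc-1, against 0.355% of all genes, and 1 had an unadjusted p under 0.05 in limma. It was tni-3, with 43.5 ± 9.76 FPKM in WT and 23.9 ± 0.916 in morc-1 (log2 -0.82 ± 0.27, limma adjusted p = 0.326). With the replicate number as a block within each generation tni-3 passed (limma adjusted p = 0.0409). unc-27 differed by -0.85 ± 0.40 and lev-11 by -0.51 ± 0.27, and these 3 genes were lower than WT without overlap, against 13.9% of all genes in that direction. unc-54 (-0.24 ± 0.41) and unc-15 (0.02 ± 0.31) overlapped with WT. The median of the muscle genes was -0.22 and that of all genes 0.25.

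In late hrde-1 worms 0 of 8 genes passed, against 3.25% of all genes. An unadjusted p under 0.05 in limma was found for 3, and all genes were not counted at that cutoff. unc-54 was at 138 ± 75.8 FPKM against 257 ± 89.8 in WT (log2 -0.97 ± 0.41, limma adjusted p = 0.358). lev-11 was at 339 ± 5.80 FPKM against 582 ± 216 (log2 -0.73 ± 0.27, limma adjusted p = 0.239), and tni-3 differed by -0.66 ± 0.27 (limma adjusted p = 0.335). Lower values without overlap were found for 5 genes (unc-54, unc-15, lev-11, tni-3 and act-4), against 11.1% of all genes in that direction. All 8 differences were below 0 with a median of -0.50, beside 0.09 for all genes. Single libraries decided several of them. Without replicate 1 of late hrde-1, unc-27 turned to 0.38 and myo-3 to 0.24, and unc-54 was at -0.38. Without replicate 1 of late WT, unc-15 was at -0.08 and lev-11 at -0.34, while without replicate 2 of late WT both passed, at -1.17 (limma adjusted p = 0.0285) and -1.11 (limma adjusted p = 0.0413).

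Markers of other tissues differed in the same late comparisons, and their part in the muscle gene values was not tested. In late hrde-1 worms 3 of 17 intestine genes were called lower and 1 higher (median -0.57), against 0.683% and 2.57% of all genes. Of 24 tested sperm genes 7 were called higher and 0 lower (median 3.17), and all 24 were above 0. Oogenesis genes had a median of 0.55 with 1 of 22 called higher, and P granule genes, which mark germ cells, a median of 0.35 with 3 of 23 called higher. In late morc-1 worms 0 genes of these lists passed in limma, with medians of -0.71 for intestine, 0.86 for oogenesis, 0.74 for P granule and 0.58 for sperm genes.

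**Figure D4:**
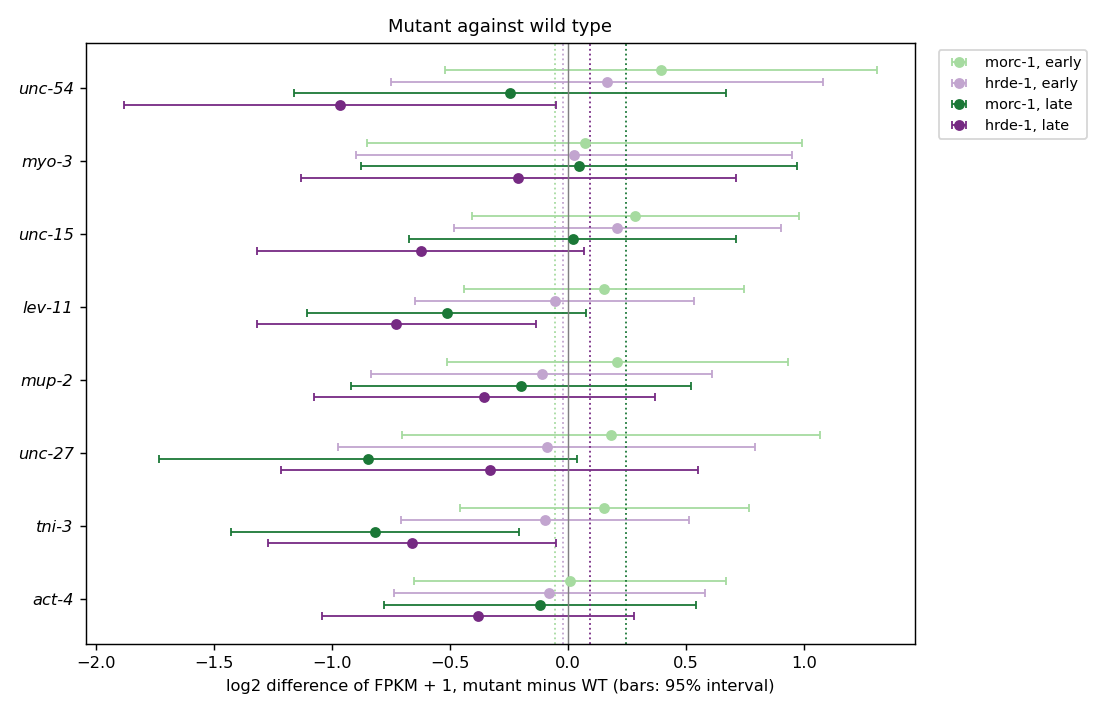
Difference of mutant minus WT on the scale log2(FPKM + 1) for the 8 tested muscle genes, early and late, with 95% intervals and dotted lines at the median of all 7324 genes. Early points lie close to 0, between -0.11 and 0.40; late hrde-1 points lie left of 0, between -0.97 and -0.21, and none passed.

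Between the mutants 0 of 8 genes passed early, against 0.437% of all genes, and 0 late, against 1.05%, with 0 at an unadjusted p under 0.05 in limma in both. Early, 4 of 8 genes (lev-11, tni-3, mup-2 and unc-27) were lower in hrde-1 without overlap, against 9.37% of all genes in that direction. All 8 early differences were below 0, with a median of -0.22 beside 0.04 for all genes. Late, unc-54 (-0.72 ± 0.41) and unc-15 (-0.65 ± 0.31) were lower in hrde-1 than in morc-1 without overlap, as was lev-11 (-0.21 ± 0.27), against 18.9% of all genes in that direction. tni-3 was higher without overlap (0.16 ± 0.27), against 14.7% in that direction. Whether the generation change itself differed from that in WT was tested as an interaction. For morc-1 0 of 8 genes passed, with 0% of all genes called, and for hrde-1 0 of 8, with 0.041%. tni-3 in morc-1 (-0.97 ± 0.39, limma adjusted p = 0.389) was the 1 gene with an unadjusted p under 0.05 in limma, and in hrde-1 the count was 0. All 8 differences were below 0 in both, with medians of -0.52 and -0.44 beside 0.30 and 0.11 for all genes, but the direction held for 5 genes in morc-1 and 4 in hrde-1 under each alternative. In morc-1 act-4 turned to 0.26 under quantile normalization, and without replicate 1 of late WT unc-15 was at 0.28 and myo-3 at 0.26. In hrde-1, without replicate 1 of its late libraries, unc-27 was at 0.47, myo-3 at 0.22 and act-4 at 0.00, and mup-2 was at 0.10 without replicate 1 of early WT. Both tests use the same WT libraries.

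Other genes with a part in muscle were examined by role, from lists chosen with earlier results of these data known. The lists were not limited to muscle, and act-5 also stands in the intestine list. Of 12 other thick filament genes 4 were tested, and in late against early WT 1 rose, 0 fell and 3 did not pass (median 0.88), where 3.13% of all genes rose. It was mlc-3, an essential myosin light chain, with 449 FPKM early and 1029 FPKM late on average (log2 1.21 ± 0.28, limma adjusted p = 0.0412). mlc-2, a regulatory light chain, was at 453 and 593 FPKM early and at 1313 and 1747 FPKM late in WT (log2 1.55 ± 0.49, limma adjusted p = 0.0628). Over the 3 strains, where 7.45% of all genes rose, both rose, mlc-2 by 0.91 ± 0.28 and mlc-3 by 0.52 ± 0.16, with a limma adjusted p of 0.0279 and 0.0282. mlc-1, a near-identical partner of mlc-2 whose reads may be shared with it, differed by 0.12 ± 0.24. On average the 4 tested genes were higher in replicate 2 than in replicate 1 in all 6 groups, by 0.20 to 0.84 on the log2 scale. The giant and scaffold proteins of the sarcomere were low, with unc-22 (twitchin) at 1.50 to 4.08 FPKM and unc-89 (obscurin) at 2.09 to 5.88 FPKM, and were not tested.

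Of 18 other thin filament genes 15 were tested, and 0 passed in late against early WT in limma (median -0.23). An unadjusted p under 0.05 in limma was found for 3 of the 15, and all genes were not counted at that cutoff. Over the 3 strains 2 of the 15 fell, a smaller share than the 38.5% of all genes, and 0 rose: unc-87, an actin-bundling protein of muscle, by -1.16 ± 0.25 (limma adjusted p = 0.0119), and act-5, an actin of the intestine, by -0.44 ± 0.15 (limma adjusted p = 0.0402). Both falls are to be read beside the all-gene median of -0.41. pat-10, the body-wall troponin C, was at 1295 and 1129 FPKM in early WT and at 2410 and 2370 FPKM in late WT without overlap, but did not pass (log2 0.98 ± 0.31, limma adjusted p = 0.0625). tni-1, a further troponin I gene, differed by 0.07 ± 0.33 in WT and by -0.92 ± 0.33 in hrde-1, and tni-4, the pharyngeal troponin I, by -0.02 ± 0.28 in WT. The actins act-1, act-2 and act-3 were at 83.8 to 245, 366 to 807 and 174 to 239 FPKM.

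Dense bodies anchor the thin filaments to the membrane. Of 18 genes of dense bodies and attachment 13 were tested, and 0 passed in late against early WT in limma (median -0.32). An unadjusted p under 0.05 in limma was found for 5 of the 13, and all genes were not counted at that cutoff. Over the 3 strains 3 of the 13 fell, again a smaller share than the 38.5% of all genes, and 0 rose: dim-1, a protein of the muscle membrane, by -0.95 ± 0.20, unc-52 (perlecan) by -0.65 ± 0.20 and pat-3 (beta-integrin) by -0.56 ± 0.19, with a limma adjusted p of 0.0109, 0.0270 and 0.0382. Among 3 tested calcium handling genes csq-1, calsequestrin, rose in WT from 50.3 and 63.1 FPKM to 191 and 118 FPKM (log2 1.402 ± 0.27, limma adjusted p = 0.0253). Over the 3 strains csq-1 rose by 0.95 ± 0.15 and the calcium pump gene sca-1 by 0.67 ± 0.17, with a limma adjusted p of 0.00545 and 0.0153. The shares of all genes that rose were 3.13% in WT and 7.45% over the 3 strains. The 6 regulators listed for muscle and pharynx were all below the level required for testing. Among them hlh-1 (the worm MyoD) was at 1.74 to 3.79 FPKM and unc-120 at 5.14 to 10.5 FPKM. The sum of the 6 ran from 15.6 to 21.2 FPKM early and from 13.95 to 22.4 FPKM late. Of the 35 tested genes of these lists 0 passed in limma against WT in morc-1 late and in hrde-1 late. There 0.355% and 3.25% of all genes passed. At an unadjusted p under 0.05 in limma there were 4 and 6 of the 35. The share of all genes at that cutoff was not counted. Early, 0 passed in limma in either mutant, with 0 at an unadjusted p under 0.05, where 0.109% and 0.601% of all genes passed.

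Other tissues moved with generation as well. In late against early WT 7 of 17 intestine genes rose and 1 fell (median 1.15), against 3.13% and 4% of all genes, and the summed FPKM of the 18 listed went from 5816 to 6503 early to 17900 to 18926 late. In the mutants that sum was 5868 to 7195 early and 11089 to 11150 late for morc-1, and 6051 to 6582 early and 9049 to 16824 late for hrde-1. Of 6 tested neuron genes 1 rose in WT, sbt-1 (1.39 ± 0.27), with 220 to 316 summed FPKM early and 311 to 376 late. Among 22 oogenesis genes 6 fell and 0 rose in WT (median -0.97), against the same 4% of all genes that fell, with sums of 6459 to 10430 FPKM early and 4955 to 6306 FPKM late. P granule genes had 8 of 23 that fell and 0 that rose in WT (median -0.97), with sums of 5123 to 6053 FPKM early and 2606 to 2836 FPKM late. From early to late morc-1 0 genes of these germline lists passed in limma, and their medians were above 0, at 0.38 for oogenesis and 0.44 for P granule genes. In hrde-1 the medians were -0.19 and -0.44, and 0 passed there too. No gene of the intestine, neuron, oogenesis or P granule lists was at 0 in every library. The part of tissue composition in the muscle gene differences was not tested.

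**Figure D5:**
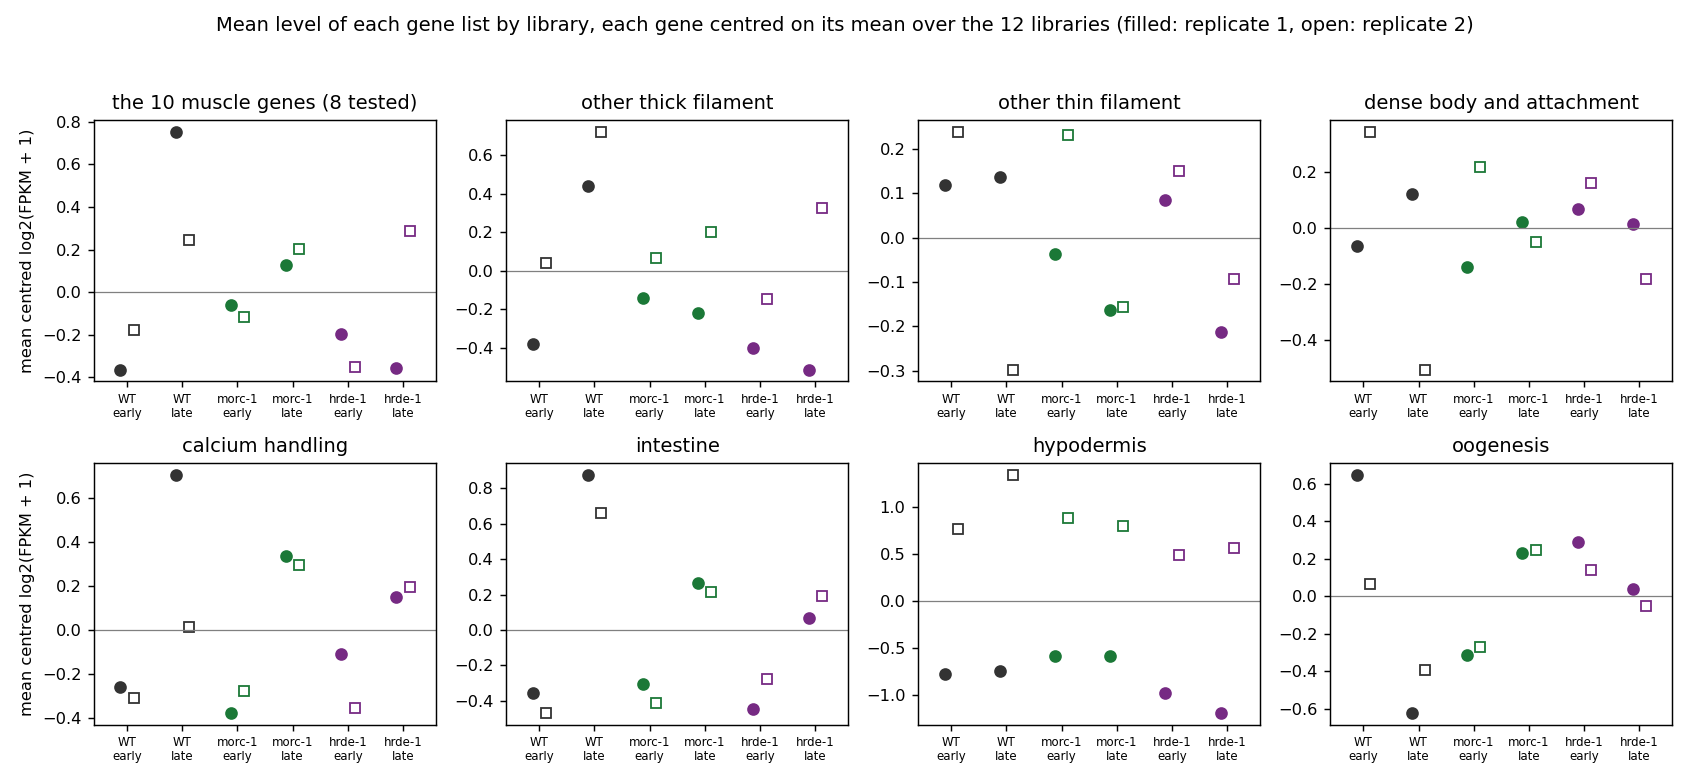
Mean level of each gene list by library, as log2(FPKM + 1) with each gene centred on its mean over the 12 libraries. Filled circles are replicate 1 and open squares replicate 2. The mean levels of the hypodermis and other thick filament lists are higher in replicate 2 in all 6 groups, which does not hold for each gene. The muscle genes of the set run from -0.36 in an early WT library to 0.75 in a late one.

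The summed FPKM of the 10 muscle genes made up 0.135 to 0.181% of all FPKM in early libraries and 0.154 to 0.251% in late ones. By mean centred level the late WT libraries were at 0.75 and 0.25, the late morc-1 libraries at 0.13 and 0.20 and the late hrde-1 libraries at -0.35 and 0.29, while all early libraries lay between -0.36 and -0.06. The 5 genes outside the set whose centred profile over the 12 libraries was most like the mean profile of the 8 tested genes were asb-2 (root mean square difference 0.114 on the log2 scale), F19C7.1 (0.132), got-1.2 (0.138), ZK131.11 (0.149) and clec-50 (0.161). asb-2, by its name a subunit gene of the mitochondrial ATP synthase, ran from 202 to 224 FPKM early and from 208 to 377 FPKM late. The 8 muscle genes, which form that mean, were between 0.235 (act-4) and 0.458 (tni-3) away from it, and 0.628 to 18.8% of tested genes were nearer.

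Of the 10 genes, lev-11 was the 1 with a row among 2434 features of the small RNA table, which holds reads divided by a size factor per library. The small RNA libraries were made with RNA 5′ polyphosphatase, a treatment that takes in the triphosphorylated 22G small RNAs, with 3 libraries of WT, 3 of morc-1 and 2 of hrde-1 at each stage. Early libraries were of generation F1 and late ones of F4, except late WT replicate 3 and 1 of the 3 late morc-1 libraries, which were of F5, so late hrde-1 alone was all F4. lev-11 had 33.9, 46.0 and 17.9 normalized reads in early WT and 24.3, 26.2 and 29.5 in late WT. The morc-1 libraries held 0, 11.8 and 8.57 reads early and 7.18, 10.3 and 11.3 late, and the hrde-1 libraries 9.99 and 7.70 early and 10.1 and 12.4 late. All 10 mutant libraries were below all 6 WT libraries, but the share of features with such a split was not computed. Over all tested features the median log2 difference from WT was also below 0, at -0.18 in early and -0.33 in late morc-1 worms. In hrde-1 worms that median was -0.71 early and -1.08 late.

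In a limma test added after the data had been seen, small RNAs of lev-11 fell in early morc-1 worms (log2 -2.66 ± 0.75, adjusted p = 0.0278), where 11.5% of 2349 tested features fell. The library at 0, early morc-1 replicate 1, sets much of the size, and without it the fall was -1.50 (adjusted p = 0.0140). Leaving out either of WT early replicates 1 and 2 ended the call, with adjusted p of 0.0825 and 0.110, while the fall was -2.58 and -2.37. With a pseudocount of 0.1 it did not pass either (-3.80, adjusted p = 0.0789), and quantile normalization gave -1.08 (adjusted p = 0.0423). Differences in late morc-1 (-1.40 ± 0.75, adjusted p = 0.144), early hrde-1 (-1.68 ± 0.84, adjusted p = 0.106) and late hrde-1 (-1.18 ± 0.84, adjusted p = 0.221) did not pass. Against these, 25.4%, 42% and 53% of features were called lower. Without early morc-1 replicate 1 all 3 passed, with adjusted p of 0.00390, 0.00189 and 0.0110, as they did with a pseudocount of 10. Under quantile normalization they were -0.40, -0.45 and 0.92, so late hrde-1 turned direction (adjusted p = 0.0666). Without the F5 library of WT the late differences were -1.33 in morc-1 and -1.11 in hrde-1. In the mRNA table lev-11 was not called in any comparison.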

How the data were processed

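Analysis started from the deposited tables. Trimmomatic 0.35 and TopHat2 (version not stated) were used for mRNA and DESeq2 (version not stated) for small RNA, per the submitters' processing notes. The mRNA kit was stranded, per the labels' protocols, and neither build, annotation nor strand setting is named in any source used here. Values of the mRNA table, which the authors deposited under the name normalized counts, include fractions and were read as FPKM. Without read depth the counting error of low values is unknown. In the small RNA table the authors deposited a signal normalized by a size factor for each library. A header is repeated over 2 late morc-1 columns, which therefore have no replicate number. The deposited chromatin table, in FPKM for regions without gene names, was not used here.

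The 12 mRNA libraries were fitted together on log2(FPKM + 1) by limma (version 3.58.1, R version 4.3.3), with a mean per group and a variance trend, for the 7324 genes with a mean of at least 10 FPKM. Tests were two-sided, with Benjamini-Hochberg adjustment over all of these genes and a threshold of 0.05. A difference on this scale understates the change of low genes. The muscle genes, the gene lists and the comparisons were chosen with earlier results of these data known. Named in each comparison were the 10 muscle genes, up to 4 called genes of another list and the 5 genes most alike in profile. Genes named after their values had been seen were those of the muscle lists that did not pass. Lists without a test of their own were described by counts and medians. Chromosomes came from RefSeq genes of assembly WBcel235. The fit was tested on simulated data with independent noise in each library, which does not cover the shared deviations of same-numbered libraries. Alternatives were pseudocounts of 0.1 and 10, no filter on low values, quantile normalization, scaling to a common median, the replicate number as a block, fits on the compared groups only, and leaving out each library.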

Additional observations from a re-analysis of the deposited data

How the results depend on the processing

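Of the counts of called muscle genes, the one in late against early WT (2) depended most on the processing. It was 1 with a pseudocount of 0.1, 1 without the filter, 4 with median scaling (unc-54, unc-15, lev-11 and tni-3), 0 with the compared groups only, and 0 to 4 when 1 library was left out. For late against early hrde-1 (0) it was 1 (tni-3) with quantile normalization and 1 with median scaling, and 0 to 2 when 1 library was left out. Over the 3 strains (4) it was 2 to 4 when 1 library was left out, and for hrde-1 against WT late (0) 0 to 2. Without the filter myo-1 passed over the 3 strains (log2 0.34, limma adjusted p = 0.0372). The other comparisons kept 0 called genes under these settings. The cause was not tested.

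Same-numbered libraries of different groups deviated together within a generation (r = 0.43 to 0.55 across genes) and not across generations (-0.22 to 0.05). The labels give no pairing, so the numbers were treated as names. With the replicate number as a block, 1 gene (tni-3) passed in late against early WT. With a replicate block within each generation, 1 gene passed in morc-1 against WT late (tni-3, log2 -0.82, limma adjusted p = 0.0409), 1 in late against early hrde-1 (tni-3) and 2 over the 3 strains (unc-15 and tni-3), where unc-54 (0.68, limma adjusted p = 0.145) and unc-27 (0.35, limma adjusted p = 0.319) did not. For late against early, the fit with a block within each generation takes the level of replicate 1 and not the group means. The small RNA difference of lev-11 in early morc-1 did not pass with the replicate block (adjusted p = 0.0507).

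Mean levels of the muscle genes moved with scaling: to -0.51 in early WT, -0.23 in early morc-1, -0.50 in early hrde-1, 0.22 in late morc-1, 0.84 in late WT and, from -0.03, 0.18 in late hrde-1 with median scaling, and to 0.28 in late morc-1 with quantile normalization. In late against early WT, calls over all genes were 229 higher and 293 lower, 534 and 265 with quantile normalization and 725 and 165 with median scaling, while over the 3 strains 546 and 2823 became 1075 and 1499 and then 1285 and 997. Median scaling left an all-gene median of -0.01 in WT. Of 1912 recomputed differences of single muscle genes 33 lost and 17 gained a call, and 0 called values changed sign. Only the 2 genes called in WT and the 4 called over the 3 strains had a call to lose. The 33 are therefore not to be read as a share of the 1912.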
